A study of Danio rerio with 6 samples.

Results

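Complex I of the mitochondrial respiratory chain takes electrons from NADH, passes them to ubiquinone and pumps protons across the inner membrane. Most of its subunits are encoded in the nucleus, but 7 hydrophobic core subunits of the membrane arm are encoded by mitochondrial DNA (mtDNA) and translated inside the organelle. MtDNA is transcribed as long RNAs that span several genes and are cut into separate messages, and all of these subunits except mt-nd6 are read from the same strand. The 7 genes, mt-nd1 (ENSDARG00000063895), mt-nd2 (ENSDARG00000063899), mt-nd3 (ENSDARG00000063914), mt-nd4l (ENSDARG00000063916), mt-nd4 (ENSDARG00000063917), mt-nd5 (ENSDARG00000063921) and mt-nd6 (ENSDARG00000063922), were taken by their Ensembl identifiers from the 32057 genes of the expression table, and all 7 were found.

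Neural crest (NC) cells were sorted at 24 h post-fertilization (hpf) from AB strain zebrafish embryos that carried 2 transgenes in every library. Tg(-7.2sox10:EGFP)ir937 marks NC cells through a sox10 promoter, and Tg(7XTCF:nls-mCherry)ia5 reports canonical Wnt responses through TCF sites. High-Wnt cells were mCherry+ and low-Wnt cells mCherry−, with 3 Smart-seq2 libraries of each. The labels do not say how many embryos gave each library or whether libraries came from separate clutches, so p-values measure only the spread between these libraries. Smart-seq2 amplifies poly(A) RNA and does not mark strand, so reads of mt-nd6 and of RNA from the opposite strand cannot be told apart. TPM (transcript abundance corrected for length and scaled so that each library sums to 1000000) allows levels of different genes to be compared. The study's methods give 1 approximate sequencing depth for all samples, but the reads behind each value are not given by TPM. How reads shared with nuclear copies of mtDNA were divided is not given in the sources used here.

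High-Wnt libraries had 14283 to 14417 genes with at least 1 TPM, low-Wnt replicates 1 and 2 had 13791 and 13481, and low-Wnt replicate 3 stood apart with 9230. The comparisons of the 7 genes between populations are therefore given with and without low-Wnt replicate 3. The NC marker list (sox10, foxd3, crestin, tfap2a and snai1b) summed to 582 to 704 TPM in high-Wnt cells, 473 and 472 TPM in low-Wnt replicates 1 and 2, and 124 TPM in low-Wnt replicate 3. The Wnt response list (axin2, lef1, sp5l and nkd1) summed to 67.2 to 75.2 TPM in high-Wnt cells and to 78.1, 66.2 and 4.25 TPM in low-Wnt replicates 1, 2 and 3. The summed levels thus overlapped both with and without low-Wnt replicate 3. Without low-Wnt replicate 3, 2 of the 4 genes (sp5l and nkd1) lay wholly below in high-Wnt cells, opposite in direction to the label, and 0 wholly above. Of all 15000 tested genes, 22.6% lay wholly below and 3772 genes wholly above. Sp5l had at most 4.01 TPM in any library, and the closest values of nkd1 were 16.13 TPM (high-Wnt) and 16.47 TPM (low-Wnt). Of the 4 genes, 0 passed the limma test in either fit (0 and 0 at an unadjusted p under 0.05). The mCherry transcript was not analysed here.

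The 7 subunits together took a smaller part of the RNA in high-Wnt cells. Their summed TPM was 0.297%, 0.245% and 0.246% of the library in high-Wnt replicates 1, 2 and 3, against 0.530%, 0.363% and 0.368% in low-Wnt replicates 1, 2 and 3. Every high-Wnt library lay below every low-Wnt library. The high-Wnt mean was 0.263% ± 0.0298 and the low-Wnt mean 0.420% ± 0.0948 (SD, n = 3 each), a ratio of 0.625 (p = 0.1 by two-sided exact permutation, which is the smallest that 3 libraries against 3 allow). Without low-Wnt replicate 3, the low-Wnt mean was 0.446% and the ratio 0.588 (p = 0.2 by exact permutation, again the smallest possible). Mt-nd1, mt-nd2 and mt-nd3 alone held 0.155% to 0.192% of TPM in high-Wnt libraries, against 0.218% to 0.316% in low-Wnt ones. Mt-nd4l, mt-nd4, mt-nd5 and mt-nd6 held 0.0872% to 0.105% in high-Wnt libraries, against 0.232%, 0.145% and 0.0516% in low-Wnt replicates 1, 2 and 3. Over the 6 libraries the populations thus separated for the first group and overlapped for the second. This split was not a planned comparison. It follows the directions in which low-Wnt replicate 3 departed from the other low-Wnt libraries, so the contrast of the groups is no separate result. Within the first group, mt-nd1 by itself overlapped. In bulk RNA, fewer cells rich in mitochondrial RNA and less of this RNA per cell cannot be told apart.

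Several other measures of the libraries also differed between the populations. The NC list was higher in every high-Wnt library, with 3 of its 5 genes wholly above and 0 wholly below. The muscle list (myod1 and actc1b) summed to 1012 to 1690 TPM in high-Wnt libraries, against 389.7 to 544 TPM in the low-Wnt ones. Actc1b made up nearly all of this sum, as myod1 had at most 6.14 TPM in any library and was listed at 0 in low-Wnt replicate 2. Both genes were higher in every high-Wnt library. The neuron list (elavl3, neurog1 and neurod1) summed to 48.7 to 55.1 TPM in high-Wnt libraries, against 11.9 to 29.6 TPM in the low-Wnt ones, with all 3 genes higher in every high-Wnt library. The epidermis list (krt4, epcam and cdh1) summed to 1015 to 1262 TPM in high-Wnt libraries, against 199.5 to 586 TPM in the low-Wnt ones, and 2 of its 3 genes did not overlap. The blood list (hbae3 and gata1a) overlapped, at 243 to 303 TPM in high-Wnt libraries, against 133 to 321 TPM in the low-Wnt ones. Nearly all of this was hbae3, as gata1a had at most 1.81 TPM in any library. Over the 6 libraries, 3174 of all 14163 tested genes were higher in every high-Wnt library, so separation in this direction was common. TPM values are also relative to the rest of the library, in which the most abundant row, an identifier without a symbol, held 3.51% to 4.89% in high-Wnt libraries, against 7.26% to 10.8% in the low-Wnt ones. The part of these cell types and of this row in the lower share of the 7 subunits was not tested. After rescaling without the 10 most abundant genes, the difference in share was -0.209 percentage points of the remaining TPM (high-Wnt minus low-Wnt), against -0.158 of the whole. Those 10 genes held 11.8% to 13.8% of high-Wnt libraries and 16.0% to 18.4% of low-Wnt ones. Leaving them out therefore had to widen the difference, and the rescaling cannot show the part of this row.

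**Figure D1:**
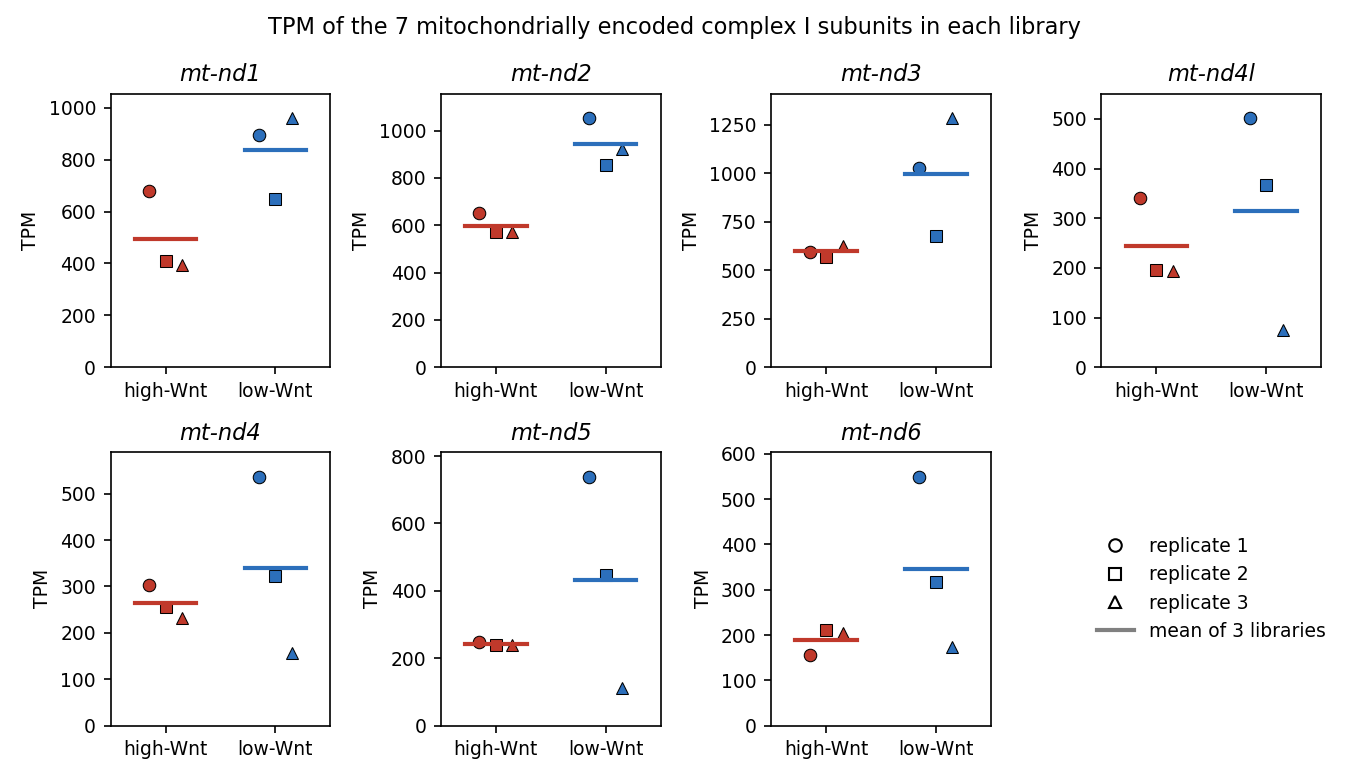
TPM (y axis, from 0, a separate scale per gene) of the 7 mitochondrially encoded complex I subunits in high-Wnt (left, red) and low-Wnt (right, blue) libraries. Symbols mark replicates 1 to 3 and bars the mean of 3 libraries. Low-Wnt replicate 3 (blue triangle) is the highest of the 6 libraries for mt-nd1 and mt-nd3 and the lowest for mt-nd4l, mt-nd4 and mt-nd5.

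The subunits are described by their place and role in the membrane arm. Mt-nd1, which helps to form the ubiquinone channel where the membrane arm meets the peripheral arm, had 678, 408 and 395 TPM in high-Wnt replicates 1, 2 and 3, against 897, 650.0 and 959 TPM in low-Wnt replicates 1, 2 and 3. It was the 1 member whose populations overlapped even without low-Wnt replicate 3, because high-Wnt replicate 1 (678 TPM) lay above low-Wnt replicate 2 (650.0 TPM). Mt-nd3, a small subunit with a loop close to the ubiquinone site, had 595, 568 and 626 TPM in high-Wnt replicates 1, 2 and 3, against 1025, 674 and 1283 TPM in low-Wnt replicates 1, 2 and 3. The high-Wnt values lay below every low-Wnt value and were close together, with a coefficient of variation (CV) of 4.90%.

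Mt-nd2, mt-nd4 and mt-nd5 are related to bacterial antiporters and form the proton-pumping modules of the membrane arm. Mt-nd2 had 649.95, 569.6 and 569.7 TPM in high-Wnt replicates 1, 2 and 3, against 1051, 853 and 923 TPM in low-Wnt replicates 1, 2 and 3. Beside mt-nd3 it was the other member without overlap over all 6 libraries, and the only one that low-Wnt replicate 3 left within the range of low-Wnt replicates 1 and 2. Mt-nd4 had 302, 256 and 233 TPM in high-Wnt replicates 1, 2 and 3, against 536, 324 and 157 TPM in low-Wnt replicates 1, 2 and 3. Mt-nd5, the most distal of the pumping subunits, had 249, 239.8 and 241 TPM in high-Wnt replicates 1, 2 and 3, against 738, 446 and 111 TPM in low-Wnt replicates 1, 2 and 3. Both had low-Wnt replicates 1 and 2 above every high-Wnt library and low-Wnt replicate 3 below them. The high-Wnt CV of mt-nd5, 2.11%, was the smallest of the 7 genes, and its low-Wnt CV of 72.8% the largest.

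Mt-nd4l and mt-nd6 are small membrane subunits that sit between the ubiquinone channel and the first pumping module. Mt-nd4l, whose message is joined to that of mt-nd4 in human mitochondria, had 340.1, 196 and 194 TPM in high-Wnt replicates 1, 2 and 3, against 501, 368 and 74.9 TPM in low-Wnt replicates 1, 2 and 3. High-Wnt replicate 1 was its highest high-Wnt library, as for mt-nd1, mt-nd2, mt-nd4 and mt-nd5. The spread within high-Wnt cells was largest for mt-nd4l (CV 34.3%) and mt-nd1 (CV 32.4%). Mt-nd6, read from the other mtDNA strand and known in human cells for a message without a poly(A) tail, had 156, 210.2 and 204 TPM in high-Wnt replicates 1, 2 and 3, against 549, 317 and 173 TPM in low-Wnt replicates 1, 2 and 3. Unlike the other 6 subunits it was lowest in high-Wnt replicate 1, and low-Wnt replicate 3 lay inside the high-Wnt range.

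Over the 6 libraries, 2 of the 7 members had every high-Wnt value below every low-Wnt value, where 5.57% of the 14163 tested genes did. Without low-Wnt replicate 3, 6 of 7 did, where 22.6% of 15000 tested genes did. No member lay above. The levels fell into an upper and a lower group. Mt-nd1, mt-nd2 and mt-nd3 were the 3 most abundant members in each of the 6 libraries, in changing order. In high-Wnt cells mt-nd2 averaged 596 ± 46.4 TPM, mt-nd3 596 ± 29.2 TPM and mt-nd1 493 ± 159.7 TPM (SD, n = 3 each), and these 3 did not differ beyond their spread. The other 4 members averaged 264 ± 35.4 TPM (mt-nd4), 244 ± 83.6 TPM (mt-nd4l), 243 ± 5.12 TPM (mt-nd5) and 190.1 ± 29.4 TPM (mt-nd6) in high-Wnt cells (SD, n = 3 each), and each differed from the next by less than the spread of the more variable one, except mt-nd5 and mt-nd6, which differed by more. From the highest to the lowest member, levels spanned 2.91 to 4.33-fold within high-Wnt libraries, 2.10 and 2.69-fold in low-Wnt replicates 1 and 2, and 17.1-fold in low-Wnt replicate 3. Among all genes of a library, ordered from the most abundant, the members ranked between place 139 and place 336 for the upper group and between place 180 and place 1177 for the lower group.

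Expression was compared across all genes with limma on log2(TPM + 1), with Benjamini-Hochberg adjustment over all tested genes and a threshold of 0.05 on the adjusted p. With all 6 libraries, 0 of the 7 members passed, where 0.367% of all tested genes did (37 higher and 15 lower in high-Wnt cells, 92 and 85 after quantile normalization, 11 and 35 after median centring). At an unadjusted p under 0.05 there were 3 of the 7, mt-nd1, mt-nd2 and mt-nd3, and 2008 of the 14163 tested genes. All 7 estimates lay below 0, but mt-nd4l turned positive when low-Wnt replicate 1 (0.50), low-Wnt replicate 2 (0.27), high-Wnt replicate 2 (0.10) or high-Wnt replicate 3 (0.10) was left out, as did mt-nd4 (0.22) and mt-nd5 (0.13) without low-Wnt replicate 1. The lowest were -0.78 for mt-nd1 (SE 0.28, limma adjusted p = 0.272), -0.72 for mt-nd6 (SE 0.41, adjusted p = 0.461), -0.69 for mt-nd3 (SE 0.26, adjusted p = 0.297) and -0.66 for mt-nd2 (SE 0.20, adjusted p = 0.188). Mt-nd5 stood at -0.45 (SE 0.61), mt-nd4 at -0.20 (SE 0.42) and mt-nd4l at -0.03 (SE 0.66), with limma adjusted p of 0.706, 0.807 and 0.983. The median log2 fold change was -0.66 over the members and 0.51 over all tested genes, so that the members lay 1.17 below the centre of the fit. Without low-Wnt replicate 3 the members lay 0.72 below it. Quantile normalization moved the median of all genes to 0.02. The 7 estimates remained below 0, from -0.76 (mt-nd1) to -0.15 (mt-nd4l), but each lay nearer to the median of all genes than before. Median centring moved the median of all genes to -0.08 and the estimates to between -1.38 (mt-nd1) and -0.63 (mt-nd4l). It shifts the log2 fold change of every gene alike, so it had to leave the distance to that median unchanged.

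Without low-Wnt replicate 3, 3 of the 7 members fell in high-Wnt cells, where 5.57% of the 15000 tested genes were called lower and 7.17% higher. Mt-nd5 fell by 1.23 on the log2 scale (SE 0.20, limma adjusted p = 0.0098), mt-nd6 fell by 1.14 (SE 0.24, adjusted p = 0.023) and mt-nd2 fell by 0.67 (SE 0.14, adjusted p = 0.023). Without a variance trend, the calls of mt-nd6 (adjusted p = 0.061) and mt-nd2 (adjusted p = 0.080) were lost in limma. The others were at -0.87 for mt-nd4l (limma adjusted p = 0.064), -0.68 for mt-nd1 (adjusted p = 0.113), -0.67 for mt-nd4 (adjusted p = 0.081) and -0.48 for mt-nd3 (adjusted p = 0.115). All 7 had an unadjusted p under 0.05, and 4696 of the 15000 genes did. The median was -0.68 over the members and 0.05 over all tested genes. In the linear values, high-Wnt means were 0.411 (mt-nd5) to 0.702 (mt-nd3) of the mean of low-Wnt replicates 1 and 2. This fit rests on 2 low-Wnt libraries. With limma's sample quality weights on all 6 libraries, 6 of the 7 members were called lower, where 11.0% of all tested genes were, and mt-nd3 was the exception (adjusted p = 0.111). These weights are estimated from the same libraries, and the weight of each library is not given here. The median over all tested genes was then 0.07, near that of the fit without low-Wnt replicate 3, so the weighted fit is no independent check on that library.

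**Figure D2:**
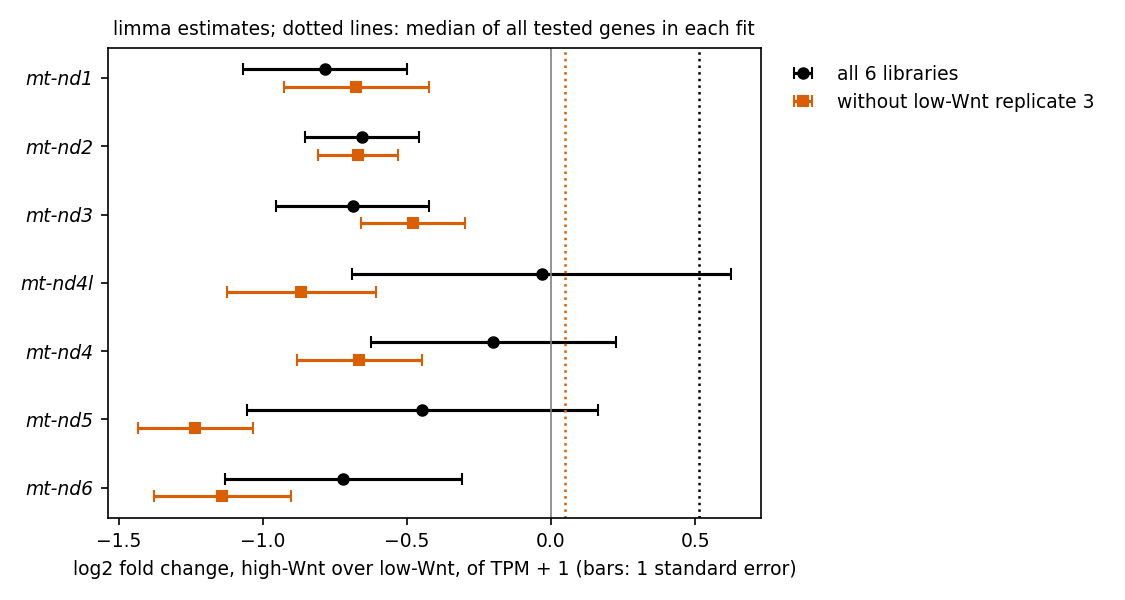
Log2 fold change of TPM + 1 in high-Wnt over low-Wnt cells (x axis) for each of the 7 subunits (y axis), from limma on all 6 libraries (black circles) and without low-Wnt replicate 3 (orange squares). Horizontal bars are 1 standard error and dotted lines the median of all tested genes, 0.51 and 0.05; the bars of mt-nd4l, mt-nd4 and mt-nd5 shrink most without low-Wnt replicate 3.

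To separate a shift shared by the 7 genes from a change in their proportions, each was expressed as a percentage of their summed TPM. Mt-nd5 made up 8.39%, 9.80% and 9.78% of the sum in high-Wnt replicates 1, 2 and 3, against 13.9%, 12.3% and 3.01% in low-Wnt replicates 1, 2 and 3. Mt-nd6 made up 5.26%, 8.59% and 8.28% in high-Wnt replicates 1, 2 and 3, against 10.4%, 8.72% and 4.71% in low-Wnt replicates 1, 2 and 3. For both, every high-Wnt library lay below low-Wnt replicates 1 and 2 and above low-Wnt replicate 3. Mt-nd4 made up 10.2%, 10.5% and 9.46% in high-Wnt replicates 1, 2 and 3, against 10.1%, 8.91% and 4.28% in low-Wnt replicates 1, 2 and 3. No member's share separated the populations over 6 libraries (8 comparisons by two-sided exact permutation, the 7 shares and the ratio of mt-nd6 to the other 6, raw p from 0.2 to 1 and adjusted p = 1 for each). Without low-Wnt replicate 3, the shares of mt-nd5 and mt-nd6 lay wholly below, and that of mt-nd3 wholly above, in high-Wnt cells (each p = 0.2 by exact permutation, the smallest possible, adjusted p = 0.4). Mt-nd6 was 5.56%, 9.39% and 9.02% of the other 6 members in high-Wnt replicates 1, 2 and 3, against 11.6%, 9.56% and 4.94% in low-Wnt replicates 1, 2 and 3. This ratio rises and falls with the mt-nd6 share, so its order of libraries and their overlap were fixed by that share. Its p without low-Wnt replicate 3 (0.2 by exact permutation, adjusted p = 0.4) is therefore no separate result for the opposite-strand gene, although the adjustment counted it among the 8 comparisons.

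**Figure D3:**
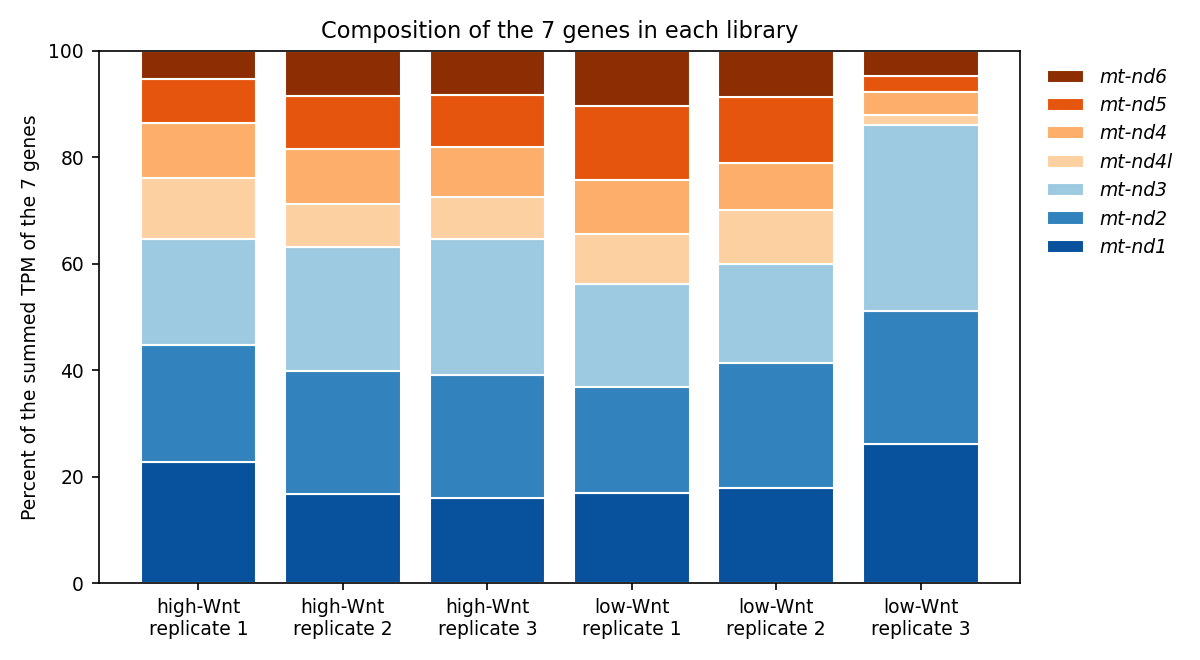
Percentage of the summed TPM of the 7 genes (y axis) held by each gene in each of the 6 libraries (x axis, high-Wnt at left). Mt-nd1, mt-nd2 and mt-nd3 (blue) and mt-nd4l to mt-nd6 (orange) fill 1 bar per library; in low-Wnt replicate 3 mt-nd3 reaches 34.8% and mt-nd4l 2.03%.

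Low-Wnt replicate 3 differed from the other 2 low-Wnt libraries in opposite directions within the complex. Its mt-nd3 was 1.51 times, its mt-nd1 1.24 times and its mt-nd2 0.970 times the mean of low-Wnt replicates 1 and 2. Its mt-nd4l was 5.80-fold, its mt-nd5 5.34-fold, its mt-nd4 2.73-fold and its mt-nd6 2.5-fold lower. These are the values of 1 library and have no test. Among the protein genes of mtDNA, as ordered by RefSeq (GRCz12tu), mt-nd4l, mt-nd4, mt-nd5 and mt-nd6 come next after mt-nd3, in that order. The flanking genes were not lower by as much, since mt-nd3 was at 1.51 times and mt-cyb, the next protein gene, at 0.994 times the mean of low-Wnt replicates 1 and 2. Mt-co1, which follows mt-nd2, was 3.72-fold lower in low-Wnt replicate 3, although mt-nd2 before it and mt-co2 after it, at 1.57 times, were not. Across the 5 other libraries the mt-nd4l to mt-nd4 ratio was 1.12, 0.765 and 0.835 in high-Wnt replicates 1, 2 and 3 and 0.935 and 1.14 in low-Wnt replicates 1 and 2, against 0.476 in low-Wnt replicate 3.

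**Figure D4:**
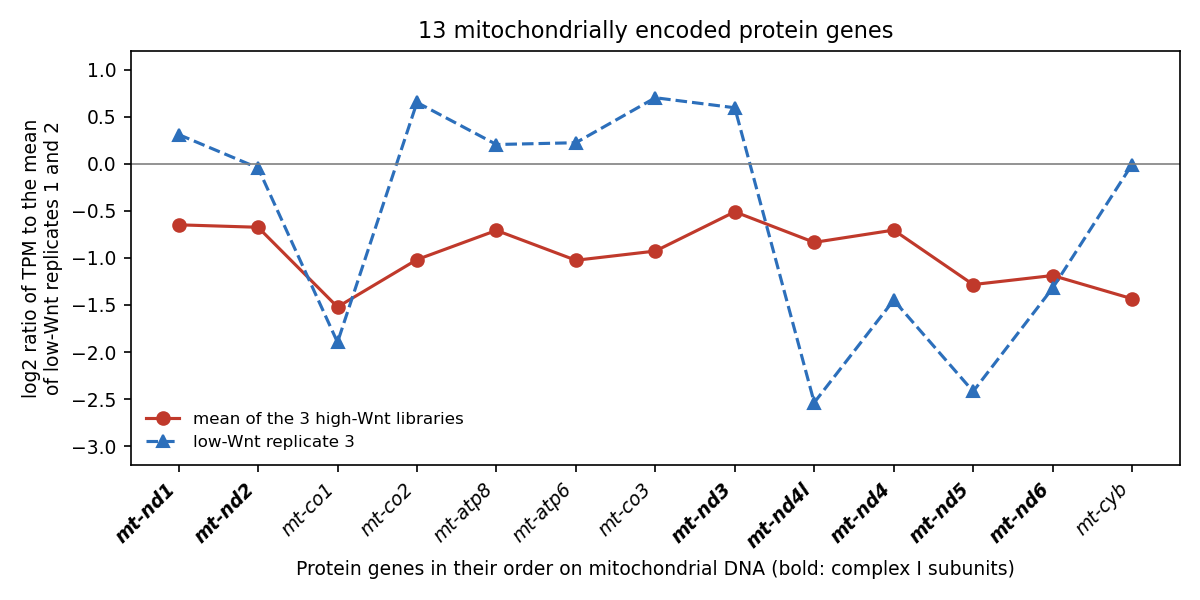
Log2 ratio of TPM to the mean of low-Wnt replicates 1 and 2 (y axis) for the 13 mtDNA protein genes in their order on mtDNA (x axis, evenly spaced), for the mean of 3 high-Wnt libraries (red circles) and for low-Wnt replicate 3 (blue triangles). The high-Wnt mean is below 0 for all 13 genes, between -0.51 for mt-nd3 and -1.52 for mt-co1, while low-Wnt replicate 3 ranges from 0.70 for mt-co3 to -2.54 for mt-nd4l.

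The other 6 mtDNA protein genes, which encode subunits of cytochrome c oxidase (mt-co1, mt-co2 and mt-co3), ATP synthase (mt-atp6 and mt-atp8) and complex III (mt-cyb), had a median log2 fold change of -1.11 over 6 libraries and -0.98 without low-Wnt replicate 3. Over 6 libraries 5 of the 6 had every high-Wnt value below every low-Wnt value, where 5.57% of the 14163 tested genes did. The exception was mt-co1, which had 2982, 2432 and 2235 TPM in high-Wnt replicates 1, 2 and 3, against 9023, 5612 and 1966 TPM in low-Wnt replicates 1, 2 and 3. They summed to 1.65%, 1.50% and 1.46% of TPM in high-Wnt replicates 1, 2 and 3, against 4.05%, 2.60% and 3.88% in low-Wnt replicates 1, 2 and 3. The complex I subunits held more of the mtDNA messages in high-Wnt cells, with 15.2%, 14.1% and 14.5% of the TPM of all 13 genes in high-Wnt replicates 1, 2 and 3, against 11.6%, 12.3% and 8.67% in low-Wnt replicates 1, 2 and 3. The populations did not overlap (p = 0.1 by two-sided exact permutation, and p = 0.2 without low-Wnt replicate 3, both the smallest possible; this ratio was chosen after the values were seen). In limma, mt-cyb fell by 1.42 with all 6 libraries (SE 0.20, adjusted p = 0.042), where 0.106% of tested genes were called lower. Its adjusted p was 0.085 to 0.279 when any library other than low-Wnt replicate 3 was left out, settings under which 0 genes of the whole table passed. The mt-cyb call was also lost with a pseudocount of 0.1 (adjusted p = 0.057), no filter (0.083), a filter at a mean of 5 TPM (0.073), median centring (0.235) and no variance trend (0.150). Of these 6 genes, 5 fell without low-Wnt replicate 3, where 5.57% of the 15000 tested genes were called lower. The exception was mt-atp8 (log2 fold change -0.64, limma adjusted p = 0.108).

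The nuclear genes of complex I were read from 2 lists. Of the core list (ndufs1, ndufs3, ndufs7, ndufv1 and ndufv2, subunits of the peripheral arm that takes up electrons from NADH), 0 of 5 passed the limma threshold in either fit (0 with 6 libraries and 1 without low-Wnt replicate 3 at an unadjusted p under 0.05). Of 30 listed accessory subunits (among them ndufa4, now assigned to cytochrome c oxidase), 0 passed with 6 libraries (5 at an unadjusted p under 0.05 in limma), where 0.367% of all tested genes did, and 2 fell and 1 rose without low-Wnt replicate 3, where 5.57% of all tested genes were called lower and 7.17% higher. Those were ndufs4 (log2 fold change -0.56, limma adjusted p = 0.021), ndufb10 (-0.50, adjusted p = 0.036) and ndufa5 (0.54, adjusted p = 0.035). The median log2 fold change of these 35 nuclear subunits was -0.27 with 6 libraries and -0.09 without low-Wnt replicate 3, against -0.66 and -0.68 for the 7 mitochondrially encoded ones. With 6 libraries, 1 of the 7 lay below every one of the 35 nuclear subunits, whose lowest was -0.77, and 4 nuclear subunits lay below the median of the 7. Without low-Wnt replicate 3, 6 of the 7 lay below every nuclear subunit, whose lowest was -0.58, and mt-nd3 was the exception. Low-Wnt replicate 3 had the highest TPM of the 6 libraries for 25 of the 30 accessory subunits and 3 of the 5 core subunits (ndufs3, ndufs7 and ndufv2), and the lowest for the other 2, with 7.89 TPM for ndufs1 against 57.1 to 69.9 TPM in the other 5 libraries and 25.2 TPM for ndufv1 against 59.9 to 87.9 TPM. The share of all tested genes that were highest in this library was not counted, so these counts cannot be read as particular to complex I.

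Some assembly factors, which build the complex from its parts, were called lower in high-Wnt cells once low-Wnt replicate 3 was left out. Of 14, 0 passed with 6 libraries (2 at an unadjusted p under 0.05 in limma) and 4 fell without low-Wnt replicate 3, where all tested genes gave 0.367% called with 6 libraries and 5.57% called lower without low-Wnt replicate 3. Ndufaf7, a methyltransferase, had 11.7, 16.9 and 12.6 TPM in high-Wnt replicates 1, 2 and 3, against 39.2, 31.4 and 9.77 TPM in low-Wnt replicates 1, 2 and 3, and fell by 1.31 in that fit (limma adjusted p = 0.0092). Ndufaf6, needed for the early assembly of mt-nd1 in human cells, had 25.3, 17.2 and 15.3 TPM in high-Wnt replicates 1, 2 and 3, against 38.5, 58.1 and 49.3 TPM in low-Wnt replicates 1, 2 and 3, and fell by 1.29 (limma adjusted p = 0.020). Ndufaf5 fell by 0.67 and tmem126a by 0.67 (limma adjusted p = 0.023 for each). Of the 14 factors, ndufaf4, ndufaf5, ndufaf6, ndufaf8, timmdc1 and tmem126a had every high-Wnt value below every low-Wnt value over 6 libraries. Of the 14163 tested genes, 5.57% did. The other factors overlapped, and ndufaf7 in low-Wnt replicate 3 was below every other library. Among 6 genes of mitochondrial transcription and RNA maintenance (polrmt, tfam, tfb2m, lrpprc, slirp and mtpap), 0 passed in either limma fit (0 and 2 at an unadjusted p under 0.05), with a median of 0.39 with 6 libraries and -0.28 without low-Wnt replicate 3.

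**Figure D5:**
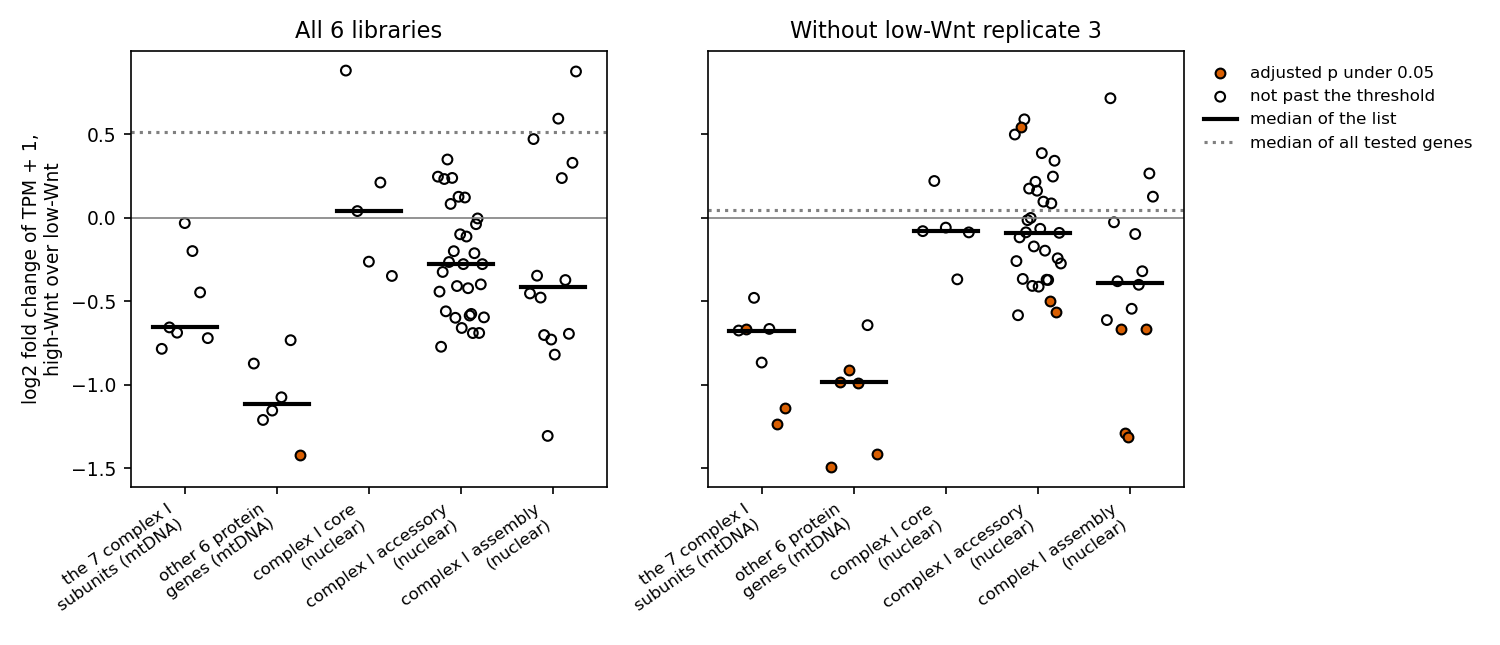
Log2 fold change of TPM + 1 in high-Wnt over low-Wnt cells (y axis) for each gene of 5 lists (x axis), with all 6 libraries (left) and without low-Wnt replicate 3 (right). Circles are genes, filled where the limma adjusted p was under 0.05, thick bars list medians and dotted lines the median of all tested genes. At the right, the medians are -0.68 and -0.98 for the mtDNA lists, -0.08 for the nuclear core, -0.09 for the accessory subunits and -0.39 for the assembly factors.

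Among 1170 other genes with a mean of at least 100 TPM, the 2 whose centred log2(TPM + 1) profile over the 6 libraries lay closest to the mean profile of the 7 members were ythdf2 and utp18. Ythdf2, a reader of methylated RNA, had 103, 109 and 102 TPM in high-Wnt replicates 1, 2 and 3, against 229, 184 and 94.1 TPM in low-Wnt replicates 1, 2 and 3 (root mean square distance 0.14, Pearson's r 0.96 over 6 libraries). Utp18, a factor of ribosomal RNA processing, had 119.8, 93.3 and 95.7 TPM in high-Wnt replicates 1, 2 and 3, against 198, 187 and 81.8 TPM in low-Wnt replicates 1, 2 and 3 (distance 0.17, r 0.94). Both were high in low-Wnt replicates 1 and 2 and low in low-Wnt replicate 3. The members themselves lay at distances of 0.22 (mt-nd4) to 0.60 (mt-nd4l) from their own mean profile. These likenesses share the same libraries and are descriptions without a test.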

How the data were processed

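Reads of 6 Smart-seq2 libraries, 3 high-Wnt and 3 low-Wnt, were mapped to GRCz11 with STAR and quantified with RSEM, and the authors deposited TPM values per Ensembl gene, 1 column per library, each summing to 1000000. The annotation release is not given in the sources used here. The authors tested counts with edgeR; TPM values are not counts, so that test was not repeated, and no counting interval can be given. Columns were assigned by the sample labels.

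The test across all genes was limma 3.58.1 (R 4.3.3), with population as the only term and a variance trend, on log2(TPM + 1) of genes with at least 1 TPM in at least 3 libraries, or 2 where a low-Wnt or high-Wnt library was left out. All 7 members passed in every library. Single values per library were compared by exact permutation (scipy 1.17.1). The limma procedure was tested on simulated data with independent noise of the same spread in every library. That simulation held no outlying library, so it does not cover the effect of low-Wnt replicate 3. Symbols came from a gene name table, which held 28988 of 32057 identifiers, and are written in lower case. Unmatched symbols left 5 of 7 core, 30 of 32 accessory, 6 of 7 mitochondrial expression, 5 of 6 NC and 2 of 3 muscle genes. A further gene of the core list is not reported here. RefSeq (GRCz12tu) gave gene order only. The members and lists were chosen with earlier results of these data known. By rule, all members and the 2 genes with the most similar profile were named; list genes past the threshold, and single list genes such as ndufs1, ndufv1, mt-co1, sp5l and nkd1, were named after their values were seen. Alternatives covered pseudocount, filter, scaling, variance model, replicate block and each library left out. No sequence is shown, as none was used here.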

Additional observations from a re-analysis of the deposited data

How the results depend on the processing

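With all 6 libraries, 0 members passed the limma threshold under a pseudocount of 0.1, no filter, a filter at a mean of 5 TPM, median centring, quantile normalization, either rescaling, no variance trend, the replicate block and the omission of any library other than low-Wnt replicate 3. Sample quality weights gave 6, all lower. Over the omissions of 1 library, the count ranged from 0 to 3, with 3 without low-Wnt replicate 3. Over all genes, 52 were called with 6 libraries, 168 with the replicate block, 4128 with sample quality weights, 1912 without low-Wnt replicate 3 and 0 without any other single library; the remaining planned settings gave 4 to 177. Of the combinations with low-Wnt replicate 3 left out, chosen after seeing the data, quantile normalization, rescaling without the 7 members and a pseudocount of 0.1 gave 3 each, median centring and rescaling without the 10 most abundant genes gave 4 each, and no variance trend gave 1 (mt-nd5). The cause was not tested. The log2 fold change of mt-nd4l ranged from -0.87 to 0.50 over the omissions of 1 library, above 0 without low-Wnt replicate 1 (0.50), low-Wnt replicate 2 (0.27), high-Wnt replicate 2 (0.10) or high-Wnt replicate 3 (0.10). It ranged from -0.67 to 0.22 for mt-nd4 and from -1.23 to 0.13 for mt-nd5, both above 0 only without low-Wnt replicate 1. Mt-nd1, mt-nd2, mt-nd3 and mt-nd6 stayed below 0 under every alternative run. The difference in summed share lay between -0.186 and -0.103 percentage points over the omissions. With the replicate block it was -0.158, which equals the value without it by arithmetic and is therefore no check. Whether the replicate numbers pair the libraries cannot be told from the values, as each population has 3 libraries and low-Wnt replicate 3 stood apart. Deviations of same-numbered libraries correlated at -0.01 to 0.14, and 2 of the 6 libraries correlated best with their own number. The highest correlation between a high-Wnt and a low-Wnt library was that of the replicates numbered 3 (0.14). TPM values do not give the reads behind each value, so no counting error is given for the members in low-Wnt replicate 3.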
